A study of Mus musculus with 10 samples.

Results

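The respiratory chain genes of mouse brain tumors and cerebella are described here, 98 of the 50559 genes counted. The members were chosen by symbol. They comprise the 13 protein genes of mitochondrial DNA and 85 nuclear genes for subunits of complexes I to V. The nuclear symbols begin with Nduf (a, b, c, s or v and a number), Sdh (a to d), Uqcr, Cox4 to Cox8 or Atp5, and 13 symbols marked as pseudogenes by "-ps" were left out. Complexes were assigned from the symbol alone, which counts Ndufa4 with complex I and Cox7a2l with complex IV. By this assignment, 7 mitochondrial and 37 nuclear members fall to complex I, 4 nuclear members to complex II, 1 mitochondrial and 8 nuclear members to complex III, 3 and 19 to complex IV, and 2 and 17 to complex V.

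The respiratory chain sits in the inner mitochondrial membrane. Complexes I and II pass electrons from NADH and succinate to ubiquinone, complex III passes them to cytochrome c and complex IV to oxygen, and complex V, the ATP synthase, uses the resulting proton gradient to make ATP. Complexes I, III, IV and V are built from proteins of both genomes, whereas every subunit of complex II is nuclear. Mitochondrial DNA is transcribed as long polycistronic RNAs that are cut at the transfer RNAs, so most of its genes share a promoter, and ND6 alone among the protein genes lies on the other strand. Neurons depend strongly on this pathway, and MYC is known to drive many nuclear genes for mitochondrial proteins.

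RNA was measured in 4 MYC/SMARCA4 tumors, 3 P7 cerebella and 3 SHH medulloblastomas (SHH MB), all as formalin-fixed, paraffin-embedded tissue. MYC/SMARCA4 tumors arose in CD1nu/nu hosts, which lack T cells, after transplantation of Math1-creERT2::Smarca4fl/fl granule cell precursors (GCPs) with lentiviral MYC, and by their labels tumors 1 to 4 were taken at 112, 96, 89 and 79 days. P7 cerebella came from Math1-creERT2::Smarca4fl/fl mice at 7 days and had received tamoxifen (0.4 mg) at P3, the same allele and tamoxifen that the donors of the tumor cells carried and received, so Smarca4 recombination is not specific to the tumors. SHH MB were of the genotype Math1-cre::Smofl/wt with a labelled age of 7 days and no named treatment. Cre driven by Math1 acts in GCPs, whereas whole cerebella and tumor punches hold all cells of the tissue. In such bulk samples, fewer cells of a type and less RNA per cell cannot be told apart. Age, host and tissue differ between the groups together with the tumor type, and their parts in any difference cannot be told apart.

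Between 5663491 and 9352109 reads were counted on genes per library. Levels are given as CPM, counts relative to a library size that was scaled by the trimmed mean of M-values (TMM). Myc, a check of the labels, stood at 151, 365, 1574 and 1007 CPM in tumors 1 to 4, at 12.9 to 14.2 CPM in P7 cerebella and at 33.4 to 45.4 CPM in SHH MB. Smarca4 lay at 135 to 242 CPM in MYC/SMARCA4 tumors, 220 to 280 CPM in P7 cerebella and 487 to 585 CPM in SHH MB, and gene counts do not show which exons are deleted. Tumor 1 stood apart. Its 7 proliferation markers summed to 111 CPM against 1594 to 1817 CPM in the other tumors, and its 7 Purkinje cell markers to 11387 CPM against 346 to 2677 CPM. It also had the lowest Myc level and the lowest TMM factor of the tumors (0.622 against 0.807 to 1.27). Results for the tumors are therefore also given without it.

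Which mitochondrial genes could be counted was decided first, because the nuclear genome holds copies of mitochondrial DNA. On GRCm39, the build the study aligned to, 4649 bases of mitochondrial DNA (chrM:6394-11042) recur on chromosome 1 (chr1:24650616-24655265, minus strand) with 10 mismatches and 1 extra base, where the annotation lists pseudogenes such as Gm10222 and Atp6-ps. The copied stretch begins inside COX1, which encodes the catalytic subunit of complex IV, and ends inside ND4. The start and the end are shown because they mark the genes whose reads can be placed. In these pairs, capitals mark bases that are equal in the mitochondrial and the nuclear sequence within the copied stretch.
COX1 at the start of the copy, chrM:6334-6453: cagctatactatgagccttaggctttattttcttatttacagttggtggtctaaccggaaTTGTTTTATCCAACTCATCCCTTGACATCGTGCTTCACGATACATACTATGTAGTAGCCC
Chromosome 1, chr1:24655206-24655325, minus strand: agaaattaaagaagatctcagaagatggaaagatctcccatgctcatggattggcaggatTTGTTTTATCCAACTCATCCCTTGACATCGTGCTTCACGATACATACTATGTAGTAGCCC
ND4 at the end of the copy, chrM:10983-11102: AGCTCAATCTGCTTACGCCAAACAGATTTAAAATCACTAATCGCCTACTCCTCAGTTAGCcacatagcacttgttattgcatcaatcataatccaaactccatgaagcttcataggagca
Chromosome 1, chr1:24650556-24650675, minus strand: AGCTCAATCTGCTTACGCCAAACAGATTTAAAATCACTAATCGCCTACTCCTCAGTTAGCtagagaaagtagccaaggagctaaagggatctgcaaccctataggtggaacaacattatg

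COX2, ATP8, ATP6, COX3 and ND4L are identical to this copy over their whole length, and ND3 differs from it at 1 of 348 bases. Every window of 75 bases, the read length, in COX2, COX3, ATP6, ATP8 and ND4L therefore occurs exactly elsewhere in the genome, as do 98.9% of those in ND3. The share was 61.5% in ND4, 39.8% in COX1, 5.71% in ND2, 1.66% in ND5 and 0 in ND1, ND6 and CYTB. ATP8, a small subunit of the ATP synthase, lies wholly within the copied stretch and overlaps ATP6 by 43 bases, written here in capitals.
ATP8, chrM:7766-7969, plus strand: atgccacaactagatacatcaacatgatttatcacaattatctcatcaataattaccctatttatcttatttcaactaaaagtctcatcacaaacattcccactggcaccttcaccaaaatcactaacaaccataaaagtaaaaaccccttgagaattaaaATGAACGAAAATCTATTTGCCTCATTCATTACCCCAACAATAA

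The counts followed this division. The 6 genes with at least 98.9% of windows copied had between 0 and 677 counts in any library, and the 7 others between 1428 and 122474. In tumor 1, COX1 had 122474 counts and its neighbour COX2 had 185. The 7 others held 99.4% to 99.9% of all mitochondrial counts in every library. How the study handled reads with several equally good positions is not given in the sources used here. Values of COX2, COX3, ATP6, ATP8, ND3 and ND4L are therefore uncertain, and levels are compared between genes for the 7 others only.

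**Figure D1:**
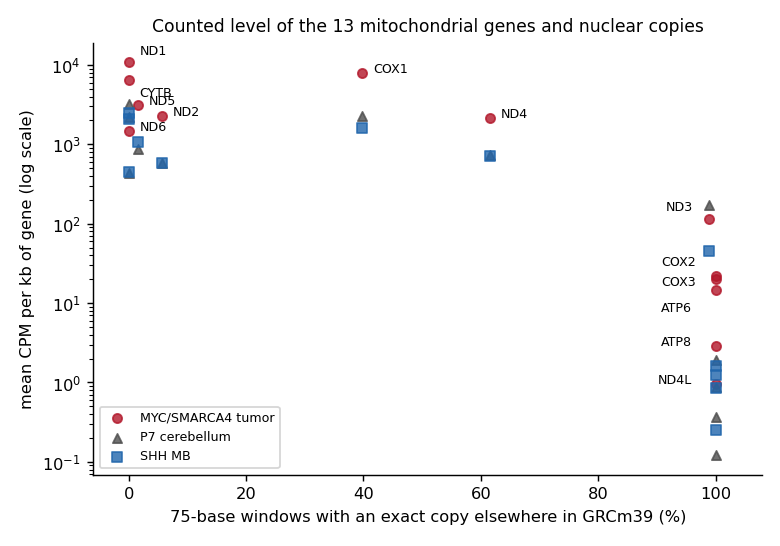
Mean CPM per kb of gene (log scale) of each mitochondrial gene against the percentage of its 75-base windows that occur exactly elsewhere in GRCm39, for MYC/SMARCA4 tumors (circles, n = 4), P7 cerebella (triangles, n = 3) and SHH MB (squares, n = 3). Names stand beside the tumor values. The 6 genes at or above 98.9% lie below the 7 others in each group, and points at a mean of 0 are not drawn.

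Per kb of windows without a copy, COX1 and ND1 had the highest mean levels of the 7 genes in every group and ND2 and ND6 the lowest. In P7 cerebella COX1 reached 3913 ± 400 CPM per kb (SD, n = 3), ND1 3444 ± 327 and CYTB 2377 ± 202. ND4 reached 2012 ± 223, ND5 927 ± 63.0, ND2 658 ± 71.2 and ND6 509 ± 77.1 CPM per kb. Ranges of COX1 and ND1 overlapped, as did those of CYTB and ND4, while ND5 lay above ND2. In SHH MB the same order held for the means, with COX1 at 2797 ± 260 and ND6 at 526 ± 27.6 CPM per kb. In MYC/SMARCA4 tumors the SD nearly equalled the mean for COX1 (13989 ± 13489 CPM per kb, SD, n = 4) and for ND1 (11686 ± 10767), since tumor 1 was far above the others.

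Mitochondrial genes took a larger share of the counts in MYC/SMARCA4 tumors than in both other groups. The share of the 13 genes was 5.72%, 2.57%, 2.497% and 2.09% of all counts in tumors 1 to 4, 1.31%, 1.498% and 1.49% in P7 cerebella 1 to 3, and 1.14%, 1.28% and 1.09% in SHH MB 1 to 3. All tumors lay above all P7 cerebella, and all P7 cerebella above all SHH MB. Without tumor 1, the tumors still lay above both other groups. The share of the 85 nuclear genes was 0.531%, 0.517%, 0.519% and 0.472% in tumors 1 to 4, 0.451%, 0.455% and 0.456% in P7 cerebella and 0.317%, 0.328% and 0.292% in SHH MB. This order of the groups was the same, with a far smaller gap between tumors and P7 cerebella. As a ratio of means, SHH MB to P7 cerebella, the gap down to SHH MB was wider (0.688 against 0.817 for the mitochondrial genes). Wilson 95% intervals of these shares are at most 0.0356 percentage points wide for the mitochondrial and 0.0118 for the nuclear genes, and they cover counting error only.

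The ratio of summed mitochondrial to summed nuclear counts does not depend on the scaling of the libraries. It was 10.8, 4.96, 4.81 and 4.43 in tumors 1 to 4, 2.92, 3.30 and 3.26 in P7 cerebella and 3.61, 3.92 and 3.72 in SHH MB. All tumors lay above all SHH MB and these above all P7 cerebella, so SHH MB and P7 cerebella changed places relative to either share alone. On the log2 scale, tumors exceeded P7 cerebella by 0.88 and SHH MB by 0.63, and SHH MB exceeded P7 cerebella by 0.25. With log2 CPM averaged over members in place of summed counts these differences were 1.42, 1.00 and 0.42. With summed counts but without COX1 and Atp5b, SHH MB exceeded P7 cerebella by 0.405. Without tumor 1, the ratio of sums differed by 0.58 from P7 cerebella and by 0.34 from SHH MB. These are descriptions of sums over the members, and no test was made of them.

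**Figure D2:**
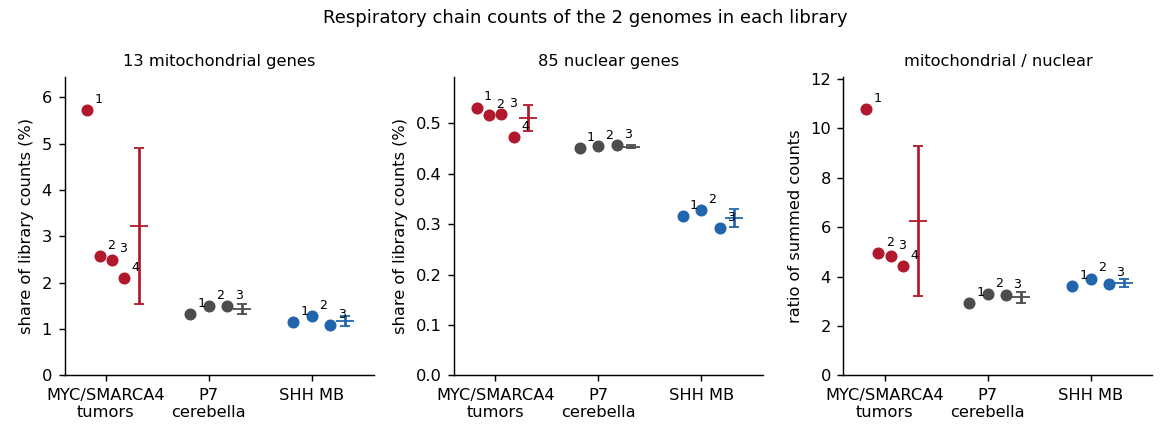
Share of library counts (%) of the 13 mitochondrial genes, of the 85 nuclear genes, and the ratio of both sums, for each library (points with replicate number) with mean and SD beside them. MYC/SMARCA4 tumors (n = 4) lie above P7 cerebella (n = 3) and SHH MB (n = 3) in each panel, and tumor 1 has the highest mitochondrial share, 5.72%.

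Markers of mature neurons varied among the tumors together with the mitochondrial level. Summed mitochondrial CPM were 92073, 31790, 19631 and 23655 in tumors 1 to 4, 11927 to 13196 in P7 cerebella and 10446 to 11908 in SHH MB. The 7 Purkinje cell markers summed to 11387, 2677, 346 and 1841 CPM in tumors 1 to 4, against 1203 to 1351 in P7 cerebella and 328 to 601 in SHH MB. The 7 markers of mature granule neurons summed to 4696, 1655, 223 and 949 CPM in the tumors, against 493 to 581 in P7 cerebella and 231 to 262 in SHH MB. No marker of either list was at 0 in a whole group. On this TMM scale the tumors had the same order by mitochondrial level and by both neuronal lists, and the reverse order by Myc and by proliferation markers. By share of counts (2.497% against 2.09%) and by the ratio (4.81 against 4.43), tumor 3 lay above tumor 4 instead, so the order of these tumors depended on their TMM factors of 1.27 and 0.884. In tumor 3, Purkinje cell markers lay within the range of SHH MB and markers of mature granule neurons below it, and its mitochondrial level was above all P7 cerebella and all SHH MB.

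**Figure D3:**
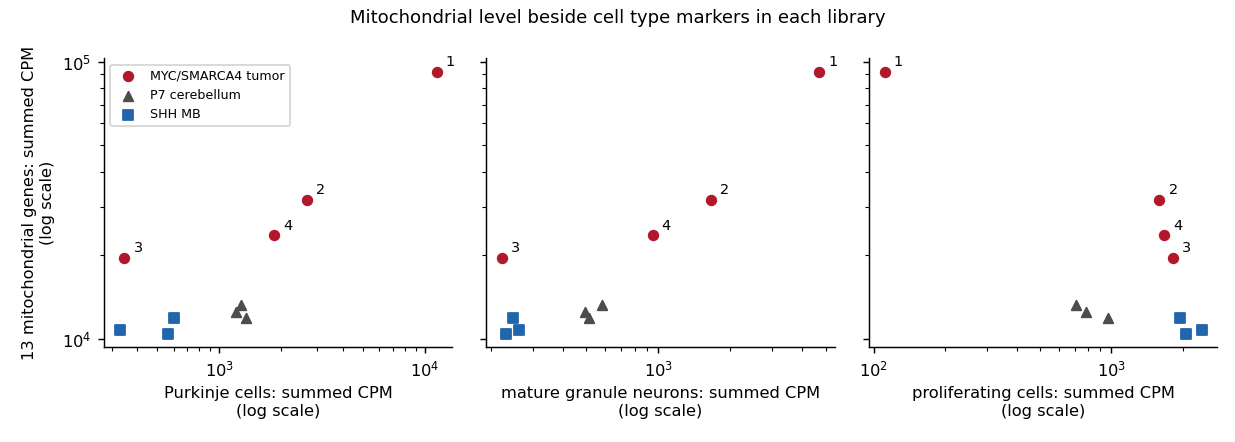
Summed CPM of the 13 mitochondrial genes against summed CPM of 7 markers each of Purkinje cells, mature granule neurons and proliferating cells, both axes on a log scale, 1 point per library with the numbers of the tumors. Tumor 1 is highest in mitochondrial level and neuronal markers and lowest in proliferation markers, tumors 3 and 4 change places in mitochondrial level when shares of counts are used in place of TMM-scaled CPM, and tumor 3 (19631 CPM) lies above all P7 cerebella and SHH MB.

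Markers of 2 further cell types, mature oligodendrocytes and endothelium, had the same order among the tumors. Summed levels of mature oligodendrocyte markers were 3962, 805, 109 and 436 CPM in tumors 1 to 4, 945 to 1121 CPM in P7 cerebella and 126 to 391 CPM in SHH MB, so only tumor 1 was above P7 cerebella. Endothelial markers summed to 320, 157, 94.8 and 136 CPM in tumors 1 to 4, 197 to 216 CPM in P7 cerebella and 190 to 232 CPM in SHH MB. The other lists did not follow this order. Markers of astrocytes and Bergmann glia reached 106 to 1006 CPM in tumors and 1595 to 1645 CPM in P7 cerebella. Markers of the granule cell lineage, the lineage targeted in both tumor models, were present in all groups. Their sums were 1879, 1545, 785 and 602 CPM in MYC/SMARCA4 tumors 1 to 4, 1855 to 2066 in P7 cerebella and 1879 to 2339 in SHH MB. The tumors had the same order by mitochondrial share of counts, by the ratio to nuclear counts and by labelled age. Of these 7 markers, 2 were called lower and 0 higher in MYC/SMARCA4 tumors against each of the other groups, with median log2 fold changes of −0.75 and −1.19 over the list. The 2 were Barhl1 (−3.16 against P7 cerebella and −4.78 against SHH MB) and Mfap4 (−4.09 and −4.29), and 2.27% and 2.26% of all genes were called lower. The part of these cell types in the results below was not tested.

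Against P7 cerebella, 3 of the 7 mitochondrial genes that could be counted (ND2, ND5 and ND6) were higher in MYC/SMARCA4 tumors and 0 lower. The test was edgeR at an adjusted p of at most 0.05, which called 3.99% of all 29952 genes tested higher and 2.27% lower. The log2 fold changes of all 7 lay between 1.52 (CYTB) and 1.96 (ND2) with a median of 1.76, against −0.05 over all genes tested. With COX2, COX3, ATP6 and ND3, which were tested but are uncertain, 6 of 11 were called higher and the median was 1.83. Of these, COX2 and ATP6 entered the test only through the tumors, where they are high. COX3 had 6 to 26 counts in P7 cerebella and 8 to 11 in SHH MB, against 40 to 161 in the tumors. Calls of COX2, COX3 and ATP6 are not counted as support. ND4L and ATP8 had too few counts for the test. In 7 of the 7 countable genes every tumor was above every P7 cerebellum, as in 10.3% of all genes. In 0 every tumor was below, as in 10.7%. With the uncertain genes, every tumor was above in 10 of 11.

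ND2, a core subunit of the membrane arm of complex I, stood at 4795, 1906, 1199 and 1420 CPM in tumors 1 to 4, at 524, 643 and 629 CPM in P7 cerebella and at 600, 645 and 552 CPM in SHH MB. Every tumor was above every other library, and the other groups overlapped. Its log2 fold change against P7 cerebella was 1.96 ± 0.48 (SE, edgeR, adjusted p = 0.0343), with an adjusted p between 0.00035 and 0.146 over the 19 alternative fits. The exact permutation test on log2 CPM gave p = 0.0286, the smallest value that 4 against 3 libraries allow.

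ND5, likewise of the membrane arm, had 10305, 4703, 3669 and 3931 CPM in tumors 1 to 4, 1470 to 1662 CPM in P7 cerebella and 1858 to 2114 CPM in SHH MB. It was the 1 countable mitochondrial gene for which all SHH MB lay above all P7 cerebella. Its log2 fold change in tumors against P7 cerebella was 1.83 ± 0.45 (edgeR, adjusted p = 0.0351). ND6 of the opposite strand, also in the membrane arm, had 1465, 622, 486 and 458 CPM in the tumors and 187 to 247 CPM in P7 cerebella. It differed by 1.74 ± 0.42 (edgeR, adjusted p = 0.0315), so genes of both strands were among those higher in tumors. The ends of ND5 and ND6 overlap on opposite strands, and whether the counting used strand is not given in the sources used here.

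COX1 had the largest spread among the tumors of the 7 countable genes. It had 30090, 8706, 4389 and 6336 CPM in tumors 1 to 4, 3779, 3528 and 3081 CPM in P7 cerebella and 2262, 2719 and 2445 CPM in SHH MB. No group overlapped another, with tumor 3 only slightly above P7 cerebellum 1. The log2 fold change against P7 cerebella of 1.84 ± 0.64 did not pass (edgeR, adjusted p = 0.101). CYTB, the heme-bearing subunit of complex III, had 15089, 6087, 3738 and 4272 CPM in tumors and 2300 to 2710 CPM in P7 cerebella. ND1, at the junction of both arms of complex I, had 24495, 6997, 4578 and 5203 CPM in tumors and 2713 to 3256 CPM in P7 cerebella. CYTB (1.52 ± 0.52, adjusted p = 0.0959), ND1 (1.76 ± 0.60, adjusted p = 0.0966) and ND4 (1.56 ± 0.46, adjusted p = 0.0609) also did not pass with edgeR.

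The 3 other called genes, COX2, COX3 and ATP6, are identical to the copy on chromosome 1. Low levels outside the tumors mean that COX2 and ATP6 entered the test through the tumors, and COX3 was low outside them as well. COX2 had 45.5, 6.78, 3.75 and 3.39 CPM in tumors 1 to 4, 0.217 to 0.990 CPM in P7 cerebella and 0.282 to 0.771 CPM in SHH MB. ATP6, the proton channel subunit of the ATP synthase, had 17.9, 12.7, 5.14 and 4.11 CPM in tumors, 0 to 0.541 CPM in P7 cerebella and 0.463 to 1.13 CPM in SHH MB. The tumors did not overlap the other groups in either gene. The fitted log2 fold changes against P7 cerebella were 4.59 for COX2, 3.31 for COX3 and 5.15 for ATP6, with adjusted p of 0.0239, 0.0239 and 0.00635 (edgeR).

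ND3 was the 1 mitochondrial gene tested with a negative fold change against P7 cerebella. It had 72.5, 40.0, 26.8 and 21.9 CPM in tumors 1 to 4, 68.6, 61.5 and 49.8 CPM in P7 cerebella and 14.8, 18.5 and 13.4 CPM in SHH MB. Tumors and P7 cerebella overlapped, and all SHH MB lay below both. The log2 fold change was −0.58 ± 0.36 in tumors against P7 cerebella (adjusted p = 0.319) and −1.95 ± 0.41 in SHH MB against P7 cerebella (adjusted p = 0.0974, edgeR). The latter adjusted p ranged from 6.82e-10 to 0.663 over 19 alternative fits, of which 6 passed.

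Leaving out tumor 1 lowered the median log2 fold change of the mitochondrial genes against P7 cerebella to 1.12 and changed the calls. Then 7 were higher, ND2, ND4, ND5, ND6, COX2, COX3 and ATP6, and ND3 was lower, where 9.64% of all genes were higher and 6.11% lower. Leaving out tumor 3 gave 10 higher and 0 lower, with a median of 1.77, where 11.8% of all genes were higher and 22.8% lower. Leaving out any single P7 cerebellum left 1 called, ATP6, where 0.109% to 0.264% of all genes were higher. Leaving out any single SHH MB, a group outside this comparison, left COX2, COX3 and ATP6 called and ND2, ND5 and ND6 not called. In those fits 1.34% to 1.46% of all genes were higher. When tumors and P7 cerebella were fitted alone, 1 mitochondrial gene (ATP6) and 0 nuclear genes were higher and 0 lower, where 0.206% of all genes were higher and 0.607% lower. DESeq2 called 10 mitochondrial and 8 nuclear genes higher and 0 lower, where it called 6.41% of all genes higher and 2.82% lower. Past the study's thresholds (log2 fold change of 2.5, adjusted p of 0.01) lay 1 member, ATP6, and 0.29% of all genes. Mitochondrial counts and medians in this paragraph are over all tested mitochondrial genes. Calls of the uncertain COX2, COX3, ATP6 and ND3 among them are not counted as support.

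Nuclear members differed far less from P7 cerebella. Of 80 nuclear genes tested, 3 were higher and 0 lower, with a median log2 fold change of 0.37, and 14 had every tumor above every P7 cerebellum. Shares of 3.99% and 10.3% of all genes met these criteria. The called genes were Sdhd, Atp5a1 and Atp5b. Without tumor 1 the median was 0.11, and Atp5a1, Atp5b, Atp5d and Sdhd were higher and Ndufa1 and Ndufv3 lower. In that fit 9.64% of all genes were higher and 6.11% lower. Without tumor 3, 19 were higher and 0 lower, where 11.8% of all genes were higher and 22.8% lower. With any single P7 cerebellum left out 0 were called, where 0.109% to 0.264% of all genes were higher and 0.5% to 0.641% lower. With any single SHH MB left out only Sdhd was called, where 1.34% to 1.46% of all genes were higher and 1.02% to 1.09% lower.

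Sdhd, a membrane anchor of complex II, had 70.8, 83.5, 49.0 and 79.2 CPM in tumors 1 to 4, 32.9, 30.3 and 20.5 CPM in P7 cerebella and 30.6, 28.1 and 22.1 CPM in SHH MB. Every tumor was above every other library, tumor 1 was not the highest, and SHH MB overlapped P7 cerebella. The log2 fold change was 1.34 ± 0.28 against P7 cerebella (edgeR, adjusted p = 0.0196) and 1.39 ± 0.28 against SHH MB (adjusted p = 0.0163). Sdha, the flavoprotein that oxidizes succinate, had 426, 239, 122 and 190 CPM in tumors and 94.9 to 115 CPM in P7 cerebella (1.18 ± 0.37, adjusted p = 0.0759). Sdhc, the other anchor, had 59.6 to 100 CPM in tumors and 46.1 to 53.8 CPM in P7 cerebella, and the iron-sulfur subunit Sdhb overlapped between them at 43.0 to 67.0 and 45.8 to 51.3 CPM. Complex II, which has no mitochondrial gene, had 3 of its 4 genes above P7 cerebella in every tumor, as in 10.3% of all genes. Of the 4, 1 was called, and the median log2 fold change was 0.91, against −0.05 over all genes.

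Atp5a1 and Atp5b encode the alpha and beta subunits that form the catalytic head of the ATP synthase. Atp5b, the nuclear member with the most counts, had 870, 860, 569 and 758 CPM in tumors 1 to 4, 369, 380 and 320 CPM in P7 cerebella and 363, 375 and 346 CPM in SHH MB. Atp5a1 had 945, 616, 412 and 596 CPM in tumors, 256.2 to 308 CPM in P7 cerebella and 250 to 272 CPM in SHH MB. Both genes were above the other groups in every tumor, and these groups overlapped. Log2 fold changes against P7 cerebella were 1.10 ± 0.28 for Atp5b (adjusted p = 0.0391) and 1.21 ± 0.32 for Atp5a1 (adjusted p = 0.042, edgeR). The epsilon subunit of the same enzyme, Atp5e, overlapped between tumors (33.0 to 50.9 CPM) and P7 cerebella (41.0 to 56.7 CPM). So did Atp5k of the membrane part (28.5 to 38.7 and 34.6 to 40.5 CPM), which had the lowest fold change of the complex.

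In complex I, the 7 nuclear core subunits, which carry the flavin and iron-sulfur clusters, had a median log2 fold change of 0.70 against P7 cerebella. The 30 other nuclear members counted there by symbol had one of 0.29. None of the 37 passed. An unadjusted p under 0.05 in edgeR was reached by 8 of them and by 7561 of all 29952 genes tested. Ndufs5, an accessory subunit with 69% of its windows copied elsewhere, had the largest fold change (1.54 ± 0.62, adjusted p = 0.149) at 1.39 to 6.39 CPM in tumors. Ndufa1, a small accessory subunit, had the lowest (−0.70 ± 0.41, adjusted p = 0.292), with 17.9, 13.9, 4.72 and 6.65 CPM in tumors and 15.4 to 21.1 CPM in P7 cerebella. In complex III, Uqcrc2 of the matrix-facing core was highest (0.90 ± 0.40) and Uqcrb lowest (−0.15 ± 0.33), and neither passed. In complex IV the median was 0.49 and 0 of 14 tested genes passed.

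**Figure D4:**
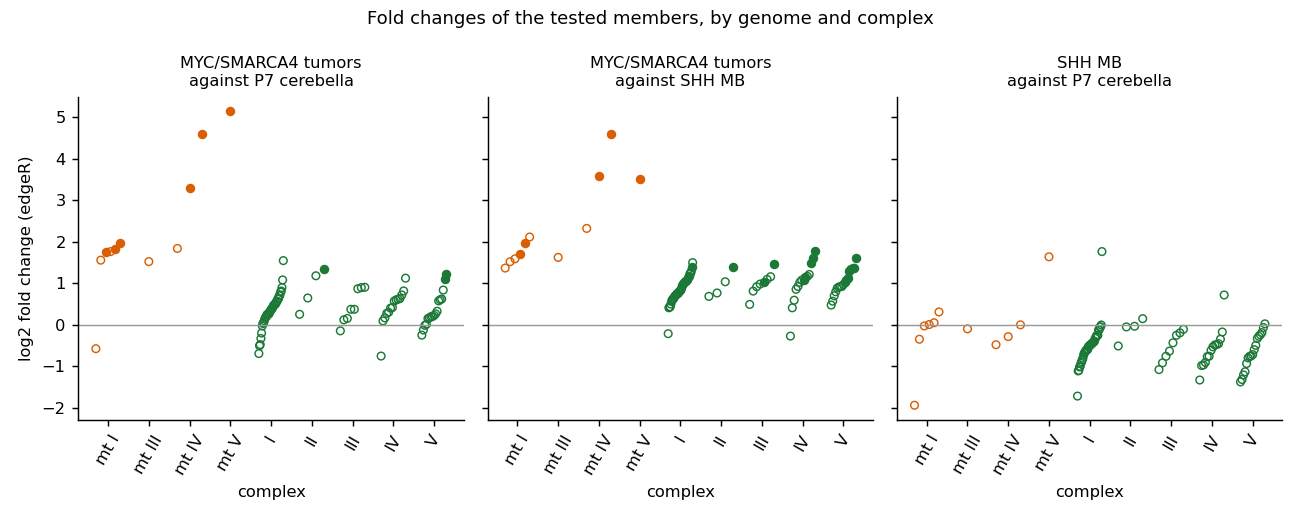
Log2 fold change from edgeR of each tested member in the 3 comparisons, by genome (orange, mt, mitochondrial; green, nuclear) and complex, with filled points at an adjusted p of at most 0.05. Mitochondrial genes lie mostly above nuclear ones in both tumor comparisons, and nuclear genes lie mostly below 0 in SHH MB against P7 cerebella, where 0 members were called.

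Against SHH MB, both genomes were higher in MYC/SMARCA4 tumors. This comparison uses the same 4 tumors as that with P7 cerebella. With edgeR, 2 of the 7 countable mitochondrial genes (ND2 and ND6) and 17 of 80 nuclear genes were higher, and 0 of either were lower, where 2.43% of all genes tested were higher and 2.26% lower. With COX2 and ATP6, which entered the test only through the tumors, and COX3, which was low outside them, the mitochondrial count was 5 of 11. Median log2 fold changes were 1.70 for the 7 countable mitochondrial genes, 1.96 for all 11, and 0.95 for the nuclear genes, against 0.01 over all genes. In 7 of 7 countable mitochondrial and 55 of 80 nuclear genes every tumor lay above every SHH MB, as in 7.83% of all genes. With the uncertain genes, the mitochondrial count was 11 of 11. In 0 members every tumor lay below every SHH MB, as in 8.3% of all genes.

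Without tumor 1, the medians were 1.11 and 0.61, and 9 mitochondrial and 23 nuclear genes were called, all higher, where 5% of all genes were called higher and 4.75% lower. Without tumor 3, 11 and 53 were higher, where 9.57% of all genes were higher and 13.9% lower. Without SHH MB 1, 2 or 3, 0 mitochondrial and 0, 1 and 0 nuclear genes were called, where 0.166% to 0.188% of all genes were higher and 0.789% to 0.969% lower. When these groups were fitted alone, ATP6 and Uqcr10 were higher, where 0.337% of all genes were higher and 1.15% lower. DESeq2 called 11 mitochondrial and 47 nuclear genes higher and 0 lower, where it called 4.21% of all genes higher and 2.19% lower. Past the study's thresholds lay 0 members and 0.601% of all genes. The number of calls thus rested on single libraries in both directions. Mitochondrial counts and the median in this paragraph are over all tested mitochondrial genes, the uncertain ones included.

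The 17 nuclear genes belong to every complex. Uqcr10, a small subunit of complex III, had the lowest adjusted p of them. It stood at 45.7, 59.8, 51.9 and 51.8 CPM in tumors 1 to 4, 35.1, 39.5 and 46.8 CPM in P7 cerebella and 15.9, 22.1 and 19.2 CPM in SHH MB. SHH MB were below all other libraries, tumor 1 was the lowest tumor, and tumors overlapped P7 cerebella. The log2 fold change against SHH MB was 1.46 ± 0.24 (edgeR, adjusted p = 0.0056), with an adjusted p between 1.8e-06 and 0.0757 over 19 alternative fits, of which 17 passed. Uqcrq of the same complex had 42.2 to 71.3 CPM in tumors and 21.7 to 31.3 CPM in SHH MB (1.04 ± 0.27, adjusted p = 0.0439).

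In complex IV, Cox4i1, Cox5b, Cox7b, Cox7c and Cox8a were higher than in SHH MB. Cox8a had 306, 226, 86.8 and 150 CPM in tumors 1 to 4, 102 to 118 CPM in P7 cerebella and 48.9, 64.3 and 53.7 CPM in SHH MB. Tumors lay above SHH MB and overlapped P7 cerebella, and the log2 fold change against SHH MB of 1.79 ± 0.38 was the largest of any nuclear member (edgeR, adjusted p = 0.0202). Cox4i1, the subunit where ATP binds to regulate the complex, had 533, 305, 166 and 181 CPM in tumors, 168 to 200 CPM in P7 cerebella and 99.5 to 111 CPM in SHH MB (1.49 ± 0.39, adjusted p = 0.0474).

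In complex V, Atp5a1 and Atp5b of the head, Atp5o of the stalk, Atp5g1 and Atp5g3 of the rotating ring, and Atp5d and Atp5md were higher than in SHH MB. Log2 fold changes ranged from 1.03 ± 0.24 (Atp5o, adjusted p = 0.0294) to 1.60 ± 0.42 (Atp5md, adjusted p = 0.0457, edgeR). Atp5g3 had 179, 165, 76.9 and 116 CPM in tumors 1 to 4, 78.8 to 92.0 CPM in P7 cerebella and 43.8 to 60.7 CPM in SHH MB. Atp5g1 encodes the same mature protein from another gene, has 76% of its windows copied elsewhere and is therefore uncertain, as are Cox7c (70%) and Cox5b (30%). For mitochondrial genes the limit was looser. They were kept as countable with at least 30% of windows free of copies, as in COX1 (39.8% copied) and ND4 (61.5%). In complex I, the core subunit Ndufs7 (1.39 ± 0.31, adjusted p = 0.0246) and the accessory subunit Ndufa6 (1.17 ± 0.29, adjusted p = 0.0381) were called.

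**Figure D5:**
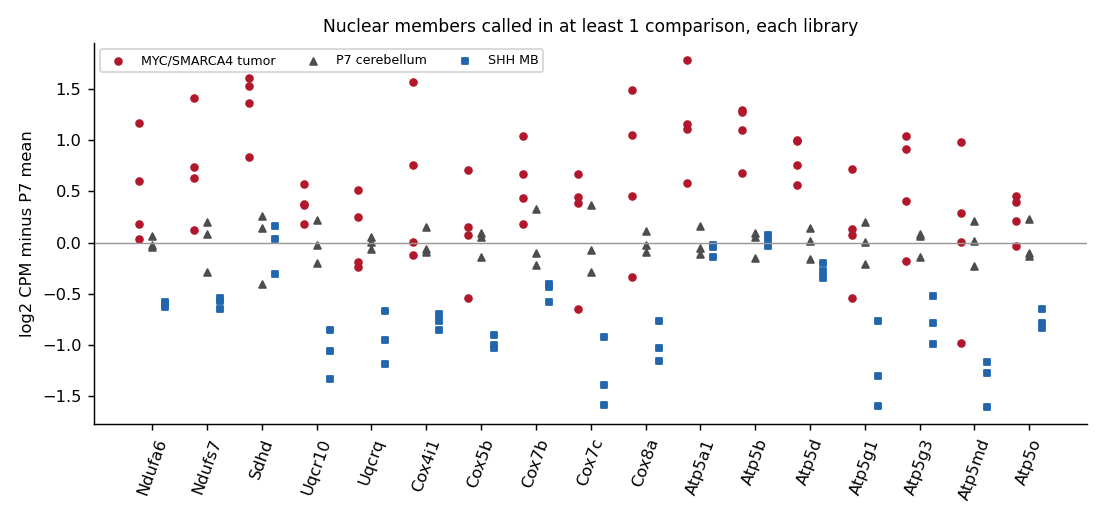
Log2 CPM minus the mean of P7 cerebella for the 17 nuclear members called in at least 1 comparison, 1 point per library (circles MYC/SMARCA4 tumors, triangles P7 cerebella, squares SHH MB), ordered by complex I to V. SHH MB lie below P7 cerebella in most genes, while Sdhd, Atp5a1 and Atp5b are at the level of P7 cerebella in SHH MB and above it in all tumors.

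In SHH MB against P7 cerebella, most nuclear members had a negative log2 fold change and mitochondrial genes had both signs. The log2 fold change was below 0 for 76 of 80 nuclear genes with a median of −0.52, and for 7 of 11 mitochondrial genes with a median of −0.03, against −0.09 over all genes. All SHH MB lay below all P7 cerebella in 57 of 80 nuclear and 3 of 11 mitochondrial genes, as in 19.0% of all genes, and above them in 1 nuclear and 1 mitochondrial gene, as in 17.8%. EdgeR over all 10 libraries called 0 members in this comparison, in which 0.177% of all genes were higher and 0.0467% lower. An unadjusted p under 0.05 was reached by 27 nuclear genes and 1 mitochondrial gene, and by 2636 of all 29952 genes tested. Over the 80 nuclear genes, fold changes in this comparison were higher for longer transcripts (Spearman's rho 0.376, against 0.241 for tumors and P7 cerebella and −0.07 for tumors and SHH MB), a description across genes of the same libraries, and the part of transcript length in the difference was not tested. DESeq2 called 3 nuclear genes (Atp5k, Ndufa1 and Uqcr10) and ND3 lower and 0 higher, where it called 0.268% of all genes lower and 0.688% higher, and limma on the deposited values called 0.

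The spread between the tumors enters the fit over all libraries. When these 2 groups were fitted alone, 46 of 80 nuclear genes were lower and 1, Ndufs5, was higher, where 10.3% of all genes were lower and 13.4% higher. Of the mitochondrial genes, ND3 and COX1 were then lower and ND5 higher. Leaving out tumor 1 made 14 nuclear genes and ND3 lower and 0 higher, where 1.19% of all genes were lower and 2.86% higher. Leaving out tumor 3 made 4 nuclear genes and 1 mitochondrial gene pass, where 0.874% of all genes were lower and 0.665% higher. Past the study's thresholds lay 0 members and 0.01% of all genes.

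By complex, median log2 fold changes of the nuclear genes in SHH MB against P7 cerebella were −0.72 in complex V, −0.58 in complex IV, −0.54 in complex III, −0.50 in complex I and −0.05 in complex II. No test compared the complexes. Ndufa1 had the lowest log2 fold change of the nuclear genes, with 4.63, 5.96 and 5.07 CPM in SHH MB against 15.4, 21.1 and 15.4 CPM in P7 cerebella (−1.72 ± 0.46, edgeR, adjusted p = 0.221). In complex V, Atp5md had 4.32, 5.96 and 5.49 CPM against 15.8, 11.6 and 13.9 CPM (−1.38 ± 0.43, adjusted p = 0.35), while Atp5b had a log2 fold change of 0.02 ± 0.29. In complex IV, Cox7c, uncertain with 70% of its windows copied, had 4.63, 3.97 and 6.48 CPM against 11.9, 10.2 and 16.1 CPM (−1.34 ± 0.39, adjusted p = 0.304). Uqcr10 had the lowest value in complex III (−1.09 ± 0.25, adjusted p = 0.139), and Uqcrfs1, the Rieske iron-sulfur protein of that complex, had the smallest difference (−0.11 ± 0.28). In all 3 of Ndufa1, Atp5md and Cox7c every SHH MB lay below every P7 cerebellum, as in 19.0% of all genes, and none of these values passed with edgeR.

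Subunit paralogs of complex IV that are known from heart, skeletal muscle, lung or testis had low levels, most of them near the limit of detection. Cox6a2, Cox7a1, Cox7b2, Cox8b and Cox8c had 0 to 15 counts in any library and were not tested. Cox4i2, the lung form of Cox4i1, had 1.67 to 3.93 CPM in tumors, 0 to 1.84 CPM in P7 cerebella and 1.27 to 2.57 CPM in SHH MB. Cox6b2, the testis form of Cox6b1, had 0.416 to 4.11, 3.34 to 4.22 and 1.39 to 3.86 CPM. Both overlapped between all groups. Of the common partners, Cox6a1, Cox6b1 and Cox7a2 had 24.9 to 230 CPM in tumors and were not called in any comparison over all libraries. All tumors were above all SHH MB in each of them. Cox4i1, Cox7b and Cox8a, also common partners, were called higher than in SHH MB, as given above.

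On the TMM scale, most members shared an order of the tumors. Tumor 1 had the highest level in 11 of 11 mitochondrial and 61 of 80 nuclear genes tested, and tumor 3 the lowest in 6 and 66. Without TMM factors, as shares of counts, tumor 1 was highest in 11 of 11 mitochondrial and 33 of 80 nuclear genes and tumor 3 lowest in 1 and 17, so for the nuclear genes this order depended on the scaling. Exceptions on the TMM scale were found among the called genes, since tumor 2 was highest for Sdhd and Uqcr10 and tumor 1 lowest for Uqcr10. Over the 10 libraries, Pearson's r of log2 CPM with the summed mitochondrial level was 0.976 for Ndufs1 and 0.973 for Ndufv1, core subunits of complex I and the highest values among nuclear members, with a median of 0.779 over 80 genes and 0.04 for Cox6b2. Of all tested genes outside mitochondrial DNA, LOC118567453 (0.992), Tef (0.991), Gm10925 (0.990), Gm36157 (0.988) and Usp2 (0.988) were most alike. Tef and Usp2 share no 75-base window with mitochondrial DNA, and the other 3 were not found by name in the annotation used. Libraries of 3 groups and tumor 1 shape these values, which are descriptions.

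Of 222 tested genes in 10 other mitochondrial lists, 41 were higher and 0 lower in tumors than in P7 cerebella, and 25 higher and 0 lower than in SHH MB, where 3.99% and 2.43% of all genes were higher. Without tumor 1, 75 were higher and 2 lower than in P7 cerebella and 60 higher than in SHH MB, where 9.64% and 5% of all genes were higher. With any single P7 cerebellum left out, 0 or 1 of them were higher than in P7 cerebella, where 0.109% to 0.264% of all genes were. With any single SHH MB left out, 1 was higher than in SHH MB, where 0.166% to 0.188% of all genes were. Of 17 tested genes for processing and turnover of mitochondrial RNA, 8 were higher than in P7 cerebella and 0 lower, with a median log2 fold change of 0.97. Among them were Fastkd2 (1.67 ± 0.30, adjusted p = 0.0106), Lrpprc (1.42 ± 0.27, adjusted p = 0.0134), which stabilizes mitochondrial messenger RNAs, and Pnpt1 (1.80 ± 0.37, adjusted p = 0.0183, edgeR). Of 15 genes for transcription and maintenance of mitochondrial DNA, 3 were higher and 0 lower, namely the helicase Twnk (1.67 ± 0.41, adjusted p = 0.0323), the packaging and transcription factor Tfam (1.07 ± 0.27, adjusted p = 0.0378) and the single-strand binding protein Ssbp1 (0.99 ± 0.25, adjusted p = 0.0391). Against SHH MB, 2 genes of the first list (Fastkd2 and Lrpprc) and 0 of the second were higher.

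Of 10 nuclear regulators of respiratory genes, the coactivators Ppargc1b (1.57 ± 0.29, adjusted p = 0.0123) and Pprc1 (2.00 ± 0.53, adjusted p = 0.0426) were higher than in P7 cerebella, and Ppargc1b also than in SHH MB (2.40 ± 0.30, adjusted p = 0.000919, edgeR). Of 25 import genes, 6 were higher than in P7 cerebella and 9 than in SHH MB (3.99% and 2.43% of all genes), with the lowest adjusted p in both for the chaperone Hspa9 (1.95 ± 0.28, adjusted p = 0.00318, and 1.35 ± 0.27, adjusted p = 0.0148). Assembly factors were called higher in 6 of 44 in each comparison, among them Tmem70, which assembles the ATP synthase, against P7 cerebella (1.32 ± 0.27, adjusted p = 0.0184) and Cox17, which carries copper to complex IV, against SHH MB (1.26 ± 0.25, adjusted p = 0.0152). Mitochondrial ribosomal proteins were higher in 9 of 49 (large subunit) and 5 of 29 (small subunit) against P7 cerebella, where 3.99% of all genes were higher, and in 2 of each against SHH MB, where 2.43% were. Of 14 genes for electron carriers and ubiquinone synthesis, Pdss1 was higher than in P7 cerebella (1.07 ± 0.24, adjusted p = 0.0234). Of 13 genes of the tricarboxylic acid cycle, Idh3a was higher in both comparisons (1.01 ± 0.28, adjusted p = 0.0499, and 1.22 ± 0.28, adjusted p = 0.0285), and of 6 outer membrane and carrier proteins Vdac1 and Slc25a3 were higher than in SHH MB. Medians of the 10 lists lay between 0.54 and 0.97 against P7 cerebella, where the nuclear respiratory members had 0.37, and between 0.39 and 1.05 against SHH MB, where they had 0.95. With all libraries, no gene of these lists was called lower in either comparison, and none was called in SHH MB against P7 cerebella.

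Promoters of nuclear members, from 250 bases before to 50 after the start, were read from RefSeq on GRCm38.p6 for 69 of 85 members. They were searched on both strands for CACGTG (the E-box bound by MYC), CCGGAAG (the core of ETS sites), the palindrome of NRF1 and the YY1 motif, of which the last can share letters with CCGGAAG. The E-box was present in 6 of 69 members (8.70%) and in 8.09% of 27025 genes with a promoter in the table. The NRF1 palindrome was present in 5 (7.25%) against 1.07%, CCGGAAG in 17 (24.6%) against 9.93% and the YY1 motif in 4 (5.80%) against 0.755%. The 3 promoters shown, with matches in capitals, are those of Sdhd, called against both groups, of Atp5g3, a called member with CACGTG, and of Cox6a1, which holds both the NRF1 palindrome and CCGGAAG. A match is a description of letters only.
Sdhd, chr9:50603800-50604099, minus strand: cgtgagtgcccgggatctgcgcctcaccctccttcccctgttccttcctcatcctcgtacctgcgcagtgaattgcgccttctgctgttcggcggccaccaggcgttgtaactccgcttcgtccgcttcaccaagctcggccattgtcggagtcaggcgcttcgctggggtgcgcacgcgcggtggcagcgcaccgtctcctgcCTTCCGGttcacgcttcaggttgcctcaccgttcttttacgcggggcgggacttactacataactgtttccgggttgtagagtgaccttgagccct
Atp5g3, chr2:73911277-73911576, minus strand: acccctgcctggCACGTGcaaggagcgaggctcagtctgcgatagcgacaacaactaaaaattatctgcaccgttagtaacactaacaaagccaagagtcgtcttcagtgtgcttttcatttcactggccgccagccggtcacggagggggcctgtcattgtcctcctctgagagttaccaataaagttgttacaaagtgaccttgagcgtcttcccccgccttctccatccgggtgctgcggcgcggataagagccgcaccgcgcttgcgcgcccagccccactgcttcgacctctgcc
Cox6a1, chr5:115348909-115349208, minus strand: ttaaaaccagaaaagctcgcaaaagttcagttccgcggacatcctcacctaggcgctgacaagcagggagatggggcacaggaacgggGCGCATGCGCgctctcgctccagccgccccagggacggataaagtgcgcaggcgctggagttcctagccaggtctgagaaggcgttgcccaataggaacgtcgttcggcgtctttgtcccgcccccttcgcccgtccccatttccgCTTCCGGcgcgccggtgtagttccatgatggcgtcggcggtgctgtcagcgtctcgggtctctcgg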

How the data were processed

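Total RNA from formalin-fixed tissue was sequenced after depletion of ribosomal RNA as single reads of 75 bases. Per the labels and the study's methods, the authors trimmed reads with Trimmomatic 0.38.1 after FastQC 0.73, aligned them with STAR 2.7.8a to GRCm39 (mm39) and counted them per gene with featureCounts 2.0.1. The authors deposited raw counts per gene and variance-stabilized values on a log2 scale from DESeq2 2.11.40.7. RNA of fixed tissue is often fragmented, and how multi-mapped reads were counted is not given in the sources used here.

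Counts of all 50559 genes and 10 libraries were fitted together with edgeR 4.0.16 (TMM, quasi-likelihood test, R 4.3.3) without covariates, with Benjamini-Hochberg adjustment over 29952 genes that passed its filter on low counts. This test was chosen for count data, while the study used limma. An adjusted p of at most 0.05 was a call. Standard errors are those of the fitted log2 fold changes, and log2 CPM used a prior count of 2. In the exact permutation test, two-sided, 4 against 3 libraries cannot go below 0.0286 and 3 against 3 not below 0.1. On simulated counts for tumors against P7 cerebella (29034 genes tested), 6 of 100 genes changed by 1 on the log2 scale and 68 of 100 changed by 2 were recovered, with 2 false calls. Libraries held 5663491 to 9352109 counts, and the limit that 3 counts set was 0.304 to 0.737 CPM. Such limits and the 95% Wilson intervals cover counting error only.

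Named were all mitochondrial genes, complex II, nuclear members called in any comparison, the highest and lowest fold change of each other complex, tissue-restricted paralogs of complex IV with their common partners, up to 3 called genes of each other list and comparison by p, and the 5 genes most alike to the summed mitochondrial level. Ndufv3, Ndufs1, Ndufv1 and the promoters shown were chosen after their values were seen. Members and lists were chosen with earlier results of these data known. Alternatives were other scaling, filters and fits, DESeq2 1.42.0, limma 3.58.1 on the deposited log2 values, and each library left out. Groups were taken from the labels. The labels do not say for every group that its samples came from separate animals, so p-values measure the spread between these samples, which may be technical. Windows of 75 bases were matched to GRCm39 on both strands. A result for an item withheld from this text is not reported here.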

Additional observations from a re-analysis of the deposited data

Results flagged for a closer look

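Tumor 1 lay far from the other MYC/SMARCA4 tumors in the mitochondrial share of counts and in the log2 ratio of mitochondrial to nuclear counts. The gap to the next tumor was 0.87 of the whole range of the group for the share and 0.872 for the ratio, above Dixon's 95% critical value for 4 samples, a limit that chance passes in about 5% of groups. Of 47 members and sums checked in the tumors, these 2 passed it. Tumor 1 also had the lowest proliferation markers and the highest Purkinje cell markers, and the part of these in its level was not tested.

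RNAs of mitochondrial DNA other than the 13 protein genes were also counted. Ribosomal RNA genes of mitochondrial DNA held a mean of 0.382% of counts in MYC/SMARCA4 tumors, with 0.603%, 0.352%, 0.381% and 0.190% in tumors 1 to 4, above 0.0891% to 0.111% in P7 cerebella. In SHH MB the share was 0.160% to 0.231%, so tumor 4 lay within that range. Transfer RNA genes of mitochondrial DNA held a mean of 0.0188% in the tumors (0.00958% to 0.0361%), above 0.00676% to 0.00790% in P7 cerebella and 0.00411% to 0.00533% in SHH MB. Lars2 and Rn18s-rs5, whose reads can resemble ribosomal RNA, were higher in tumors than in P7 cerebella by 4.10 ± 0.69 (adjusted p = 0.0084) and 4.25 ± 0.63 (adjusted p = 0.00423) on the log2 scale with edgeR. Tumors overlapped SHH MB in both genes, with log2 fold changes of 1.20 ± 0.60 and 0.92 ± 0.54 that were not called. In SHH MB against P7 cerebella they were 2.90 ± 0.67 and 3.33 ± 0.62, also not called. Ribosomal RNA had been depleted before sequencing, and differences in depletion between libraries cannot be told apart from differences in these RNAs.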

How the results depend on the processing

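Over all alternatives, values of single named genes changed sign 9 times against P7 cerebella, 1 time against SHH MB and 28 times between SHH MB and P7 cerebella, and kept direction and side of the threshold 475, 524 and 305 times. They lost the threshold 61, 191 and 0 times and gained it 19, 38 and 21 times. Against P7 cerebella, mitochondrial calls (6) became 1 with the study's thresholds (log2 fold change of 2.5, adjusted p of 0.01), 3 with at least 10 counts in every library, 1 when only the groups compared were fitted and 10 with DESeq2. With single libraries left out they ranged from 1 to 10. Mitochondrial calls and medians in this paragraph are over all tested mitochondrial genes, the uncertain ones included. Nuclear calls (3) became 0, 6 (5 higher and 1 lower), 0 and 8 in these settings and 1 without a filter on low counts, and ranged from 0 to 19. Of all genes, 5.28% were higher and 6.52% lower with at least 10 counts, and 2.22% and 1.11% without a filter. These shares were 0.206% and 0.607% in the groups alone and 6.41% and 2.82% with DESeq2. With a library left out they ranged from 0.109% to 11.8% and from 0.5% to 22.8%. The mitochondrial median ranged from 1.12 (without tumor 1) to 1.91. The difference of the log2 ratio was 1.42 when log2 CPM were averaged over members, which weights the uncertain genes like the others. Against SHH MB, mitochondrial calls (5) became 0 with the study's thresholds, 8 with robust estimation, 1 when only the groups compared were fitted, 11 with DESeq2 and 3 with limma, and ranged from 0 to 11. Nuclear calls (17) became 0 with the study's thresholds, 9 without a filter, 33 with at least 10 counts, 1 in the groups alone, 47 with DESeq2 and 3 with limma, and ranged from 0 to 53. Of all genes, 1.68% were higher and 1.31% lower without a filter, and 4.88% and 5.98% with at least 10 counts. These shares were 2.43% and 2.25% with robust estimation, 0.337% and 1.15% in the groups alone, 4.21% and 2.19% with DESeq2 and 0.692% and 1.21% with limma. With a library left out they ranged from 0.166% to 9.57% and from 0.789% to 13.9%. With a library left out the medians ranged from 1.11 to 2.05 and from 0.611 to 0.974, lowest without tumor 1. In SHH MB against P7 cerebella, mitochondrial calls (0) became 1 with at least 10 counts, 3 in the groups alone and 1 with DESeq2, and at most 1 without a library. Nuclear calls (0) became 1, 47 (46 lower and 1 higher) and 3, and ranged from 0 to 14. Of all genes, 0.506% were higher and 0.398% lower with at least 10 counts, and 13.4% and 10.3% in the groups alone. These shares were 0.688% and 0.268% with DESeq2, and up to 2.86% and 1.19% with a library left out. The nuclear median was −0.481 without a filter, −0.611 with at least 10 counts, −0.466 with limma and −0.573 (without P7 cerebellum 2) to −0.488 with a library left out. The difference of the log2 ratio was 0.405 without COX1 and Atp5b and 0.42 with averaged log2 CPM. The cause of these changes was not tested.

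The values that changed sign were as follows. Against P7 cerebella, with at least 10 counts in every library, Sdhb had −0.0223, Cox6a1 −0.0215 and Cox6b1 −0.189. Cox6b1 had −0.0262 in the groups alone and −0.107 to 0.116 with a library left out, and Cox6a1 −0.169 (without tumor 1) to 0.327. Against SHH MB, Cox6b2 had −0.821 to 0.141 (without SHH MB 2) with a library left out. In SHH MB against P7 cerebella, ND2 had −0.0787, ND6 −0.0396 and Atp5b −0.0576 with at least 10 counts, and −0.0954 to 0.0901, −0.087 to 0.121 and −0.044 to 0.0803 with a library left out. ND4 had 0.00322 with RLE factors, 0.0206 without a filter, 0.0131 with DESeq2, 0.00352 with limma and −0.13 to 0.0294 with a library left out. COX2 had 0.0228, 0.0466, 0.00608 and 0.0131 in the same settings, 0.0177 with library sizes free of mitochondrial and rRNA-like genes and −0.428 to 0.488 with a library left out, and COX3 had −0.548 to 0.365 (without P7 cerebellum 1).

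Samples of the groups share replicate numbers. Deviations of same-numbered samples from their group means correlated at 0.0547, 0.00123 and 0.162 (tumors and P7 cerebella), −0.0473, −0.0978 and −0.274 (tumors and SHH MB) and −0.0932, 0.0352 and −0.0382 (SHH MB and P7 cerebella), so the numbers did not pair the samples. With the replicate block, 3 mitochondrial and 0 nuclear genes were called higher than in P7 cerebella, where 0.551% of all genes were higher and 0.688% lower. Against SHH MB, 3 and 2 were higher, where 0.771% of all genes were higher and 1.34% lower. The mitochondrial calls in both comparisons were the uncertain COX2, COX3 and ATP6, so no countable mitochondrial gene passed. With this block ND2 had −0.0253 in SHH MB against P7 cerebella. Added after seeing the data were the restriction to the 7 countable mitochondrial genes, the order of the tumors without TMM factors and the calls of the other mitochondrial lists with a library left out, all given in the report. At this depth, 3 counts correspond to up to 0.737 CPM, which limits COX2, COX3, ATP6, ATP8 and ND4L.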
